A study of Mus musculus with 4 samples.

Results

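The 7 genes followed here mark lymphatic endothelium and were read in single cells from the mouse aorta: *Lyve1*, *Prox1*, *Flt4*, *Ccl21a*, *Mmrn1*, *Pdpn* and *Reln*. They were chosen by name, and 5 of the 7, all but *Ccl21a* and *Mmrn1*, are rows of the deposited table of 18767 genes, so *Ccl21a* and *Mmrn1* were not analysed here. Their counts were read in the 824 of 991 cells in which more than 1200 genes were detected. The cells came from 4 libraries, 2 labelled *Jag1* ECKO (202 and 236 cells) and 2 labelled *Jag1* ECWT (140 and 246 cells), and were sorted as CD31+ CD45- TO-PRO-3- cells from enzymatically digested aortas after the adventitia was taken off. The *Jag1* ECKO mice carried floxed *Jag1* alleles (*Jag1* fl/fl) and an inducible Cre driven by the *Cdh5* promoter (*CDH5* Cre-ERT2), which acts in endothelium of all kinds, whereas the control mice were *Jag1* fl/fl without the Cre (*Cdh5* +/+). By the study's methods for its mice, these were males on a C57BL/6J background aged 1.5 to 3 months, and Cre was activated with tamoxifen on 5 consecutive days at 2 mg per mouse per day. How many aortas went into a library, and whether the 2 libraries of a label came from separate mice, is not given in the sources used here, so the spread between libraries of 1 label may be technical.

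Lymphatic endothelial cells line the vessels that return fluid and immune cells from tissue to blood, and in arteries such vessels run in the adventitia rather than along the lumen. *Prox1* encodes the transcription factor that sets and holds lymphatic identity. *Flt4* encodes a receptor for VEGF-C and VEGF-D, growth factors of lymphatic vessels, *Lyve1* a hyaluronan receptor of the cell surface, *Pdpn* the membrane glycoprotein podoplanin and *Reln* the secreted glycoprotein reelin. *Lyve1* is not restricted to lymphatics, since some macrophages and some blood endothelium also carry it, and *Flt4* is found in some blood capillaries, so that detection of either gene alone does not define a lymphatic cell.

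In the GRCm38 build *Lyve1* lies on the minus strand at chr7:110850607-110863239, *Prox1* on the minus strand at chr1:190118035-190170714, *Flt4* on the plus strand at chr11:49609263-49652739, *Pdpn* on the minus strand at chr4:143267431-143299564 and *Reln* on the minus strand at chr5:21884454-22344702. All are annotated as protein-coding genes. The antisense genes *Prox1os* and *Gm28172* overlap *Prox1*, and whether the counting used the strand is not given in the sources used here, so their reads cannot be told apart. The long *Reln* gene is overlapped by 7 annotated genes and pseudogenes, 3 of them on its own strand, so its counts are uncertain in the same way. The 250 bases before a RefSeq start site are shown for *Flt4*, *Reln* and *Pdpn*, which were counted together with *Lyve1* in the same few cells below, and for *Prox1*, which was not. They are RefSeq windows of GRCm38.p6 for 4 of the 5 listed members, written 5′ to 3′ on the gene's strand, with capitals on AGGTCA or its reverse complement TGACCT, the half-site bound by nuclear receptors such as the product of *Nr2f2*.

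Flt4 (chr11:49609429-49609678, plus strand): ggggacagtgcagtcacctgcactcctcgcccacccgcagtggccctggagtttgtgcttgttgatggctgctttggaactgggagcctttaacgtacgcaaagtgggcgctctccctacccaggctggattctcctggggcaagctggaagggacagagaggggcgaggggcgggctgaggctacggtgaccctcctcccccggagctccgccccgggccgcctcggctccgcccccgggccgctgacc

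Reln (chr5:22344706-22344955, minus strand): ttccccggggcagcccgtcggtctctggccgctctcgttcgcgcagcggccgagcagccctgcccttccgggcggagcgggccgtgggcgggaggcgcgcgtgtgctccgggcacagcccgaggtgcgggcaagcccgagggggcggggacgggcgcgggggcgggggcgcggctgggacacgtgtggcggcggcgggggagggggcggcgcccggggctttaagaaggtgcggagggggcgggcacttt

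Pdpn (chr4:143299565-143299814, minus strand): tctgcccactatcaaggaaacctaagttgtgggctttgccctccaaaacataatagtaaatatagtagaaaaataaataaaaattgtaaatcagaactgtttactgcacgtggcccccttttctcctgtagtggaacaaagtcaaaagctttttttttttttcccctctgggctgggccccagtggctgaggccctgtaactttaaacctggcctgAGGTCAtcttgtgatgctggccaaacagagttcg

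Prox1 (chr1:190170828-190171077, minus strand): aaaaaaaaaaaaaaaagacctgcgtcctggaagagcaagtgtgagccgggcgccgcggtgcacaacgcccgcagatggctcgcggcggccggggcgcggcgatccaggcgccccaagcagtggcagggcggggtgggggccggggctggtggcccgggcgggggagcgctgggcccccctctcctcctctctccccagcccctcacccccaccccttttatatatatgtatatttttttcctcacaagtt

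The gene spans above are those of GENCODE. The RefSeq start of *Flt4* lies downstream of the GENCODE start, so its window falls within the GENCODE span. *Prox1* has 2 RefSeq start sites, and the window of the upstream one is shown. The other *Prox1* window (chr1:190169516-190169765, G and C content 56.0%) lies within the gene span. The half-site occurred in the *Pdpn* window (1 match) and in none of the other 3, nor in the second *Prox1* window, beside 14.02% of all 32851 windows of this length in the table. The 4 windows also differed in base composition, with a G and C content of 68.4% for *Flt4*, 80.0% for *Reln*, 43.2% for *Pdpn* and 64.8% for the *Prox1* window shown. These matches are a description of the letters in each window.

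Library totals over the kept cells ran from 859280 to 1779042 counts, and the median cell of a library held between 4212 and 6517.5 counts. The targeted gene went against the labels: *Jag1*, the Notch ligand that the Cre was meant to remove, was at 158 and 70.8 counts per 1000000 (CPM) in the libraries labelled *Jag1* ECKO and at 32.6 and 26.1 CPM in those labelled *Jag1* ECWT. SORT-seq counts the 3′ end of a transcript, and the floxed exons are not given in the sources used here, so the *Jag1* count does not check the deletion, and the groups are named below by their labels. Over all 991 cells, 324 of 373 well barcodes occurred in more than 1 library. In the re-derived clustering, 794 cells were endothelial-like (EC-like) by their markers and 30 were fibroblast/VSMC-like (VSMC, vascular smooth muscle cell).

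*Lyve1* was detected in a small part of the aortic cells of every library. A count was present in 8 of 202 cells (3.96%) and 17 of 236 cells (7.20%) of the libraries labelled *Jag1* ECKO, and in 6 of 140 (4.29%) and 15 of 246 (6.10%) of those labelled *Jag1* ECWT, 46 cells or 5.58% in all (exact 95% binomial interval 4.12 to 7.38%). The shares of the 2 labels overlapped, with means of 5.58% ± 2.29 (SD, n = 2) and 5.20% ± 1.28 (SD, n = 2). The level, as CPM of the counts summed over a library's cells, was 13.8 and 38.2 in the libraries labelled *Jag1* ECKO and 9.31 and 12.7 in those labelled *Jag1* ECWT. The second library labelled *Jag1* ECKO stood above the other 3, whose exact 95% Poisson intervals overlapped. Intervals here cover counting error only.

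The *Lyve1* counts were spread very unevenly over the 46 cells. Of these, 34 held 1 count, 8 held 2 and 1 held 3, whereas the remaining 3 held 6, 19 and 31, with no cell between 3 and 6. These 3 cells were 0.364% of all cells and carried 56 of the 109 *Lyve1* counts (51.4%). The cells with 19 and 31 counts came from the second library labelled *Jag1* ECKO and the cell with 6 from the first. In the 43 cells with 1 to 3 counts, *Lyve1* was close to the smallest amount that can be measured. For comparison, 1 of the 30 fibroblast/VSMC-like cells (3.33%, interval 0.0844 to 17.2%, median depth 7603.5 counts), a type not known for *Lyve1*, held a count, against 45 of 794 EC-like cells (5.67%, interval 4.16 to 7.51%, median depth 5245.5 counts), and these intervals overlapped. With 30 such cells this interval is wide, and it does not settle whether single *Lyve1* counts are background.

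**Figure D1:**
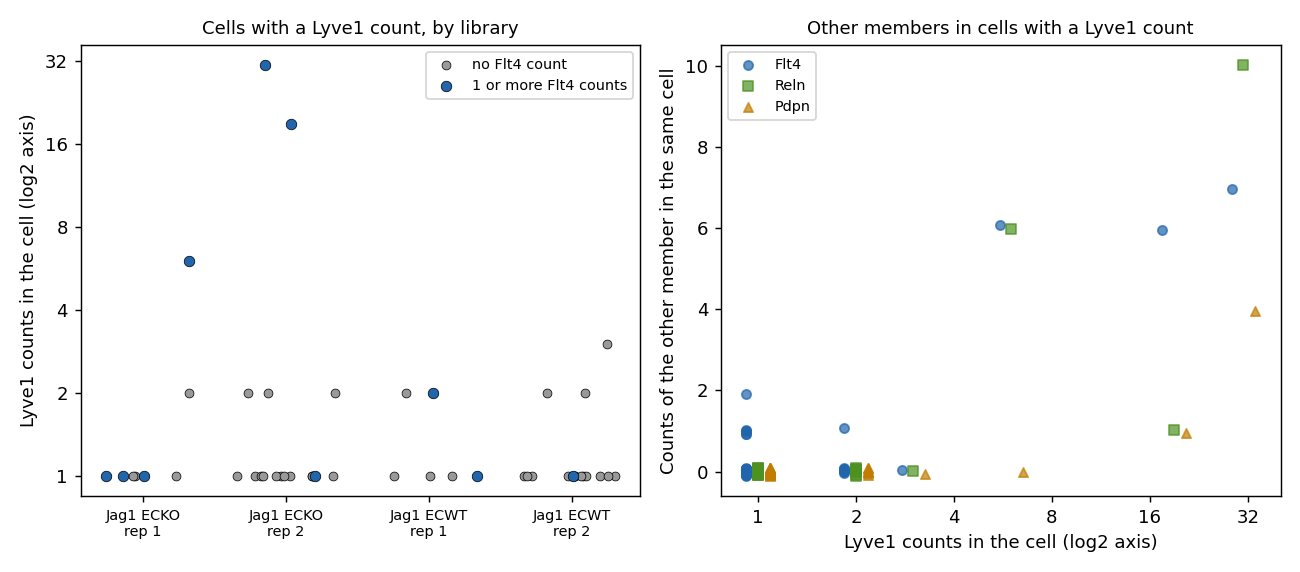
Left, *Lyve1* counts (log2 axis) of each of the 46 cells with a *Lyve1* count, by library, with blue points for cells that also held *Flt4*; right, counts of *Flt4*, *Reln* and *Pdpn* in the same 46 cells against their *Lyve1* counts (points are shifted slightly for visibility). The cells with 6, 19 and 31 *Lyve1* counts are separate from the 43 cells with 1 to 3 and hold the highest *Flt4* and *Reln* counts.

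*Flt4* was counted in more cells than any other listed member. It was present in 22 cells (10.9%) and 41 cells (17.4%) of the libraries labelled *Jag1* ECKO, and in 23 (16.4%) and 30 (12.2%) of those labelled *Jag1* ECWT, 116 cells and 165 counts in all. Its level was 37.4 and 33.7 CPM in the former and 39.6 and 22.1 CPM in the latter, so that the labels overlapped in both measures. As with *Lyve1*, most *Flt4* cells held little: 90 cells held 1 count, 17 held 2, 2 held 3 and 4 held 4. The 3 cells above these, with 6, 6 and 7 *Flt4* counts, were the same 3 cells that were highest in *Lyve1*. They carried 19 of the 165 *Flt4* counts, and the other 146 were spread over 113 cells. *Flt4* occurred in 2 of 30 fibroblast/VSMC-like cells (6.67%, interval 0.818 to 22.1%) and in 114 of 794 EC-like cells (14.4%).

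*Reln* was rarer and more concentrated. It was counted in 2 and 5 cells of the libraries labelled *Jag1* ECKO and in 1 and 2 cells of those labelled *Jag1* ECWT, at 6.89, 7.87, 1.16 and 1.34 CPM. Of its 24 counts, 17 (70.8%) lay in the 3 *Lyve1*-high cells, and the other 7 cells held 1 count each. Without the 3 cells the level was 0.987 and 1.71 CPM in the libraries labelled *Jag1* ECKO, and those libraries no longer stood apart from the other pair.

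*Pdpn* was close to absent at this depth. It was counted in 1 and 2 cells of the libraries labelled *Jag1* ECKO and in none of 140 and 246 cells labelled *Jag1* ECWT, where 3 cells with a count would be 2.14% and 1.22% (exact upper bounds 2.60% and 1.49%). Of its 6 counts, 5 lay in the 2 cells with most *Lyve1*. The remaining count was in a fibroblast/VSMC-like cell without *Lyve1*.

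*Prox1* was counted in 1 cell of each library, with 1, 1, 1 and 2 counts, at 0.984, 0.562, 1.16 and 1.34 CPM. These 4 cells fell in 4 different clusters, and 1 of them was fibroblast/VSMC-like. None held a count of *Lyve1*, *Flt4*, *Pdpn* or *Reln*.

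**Figure D2:**
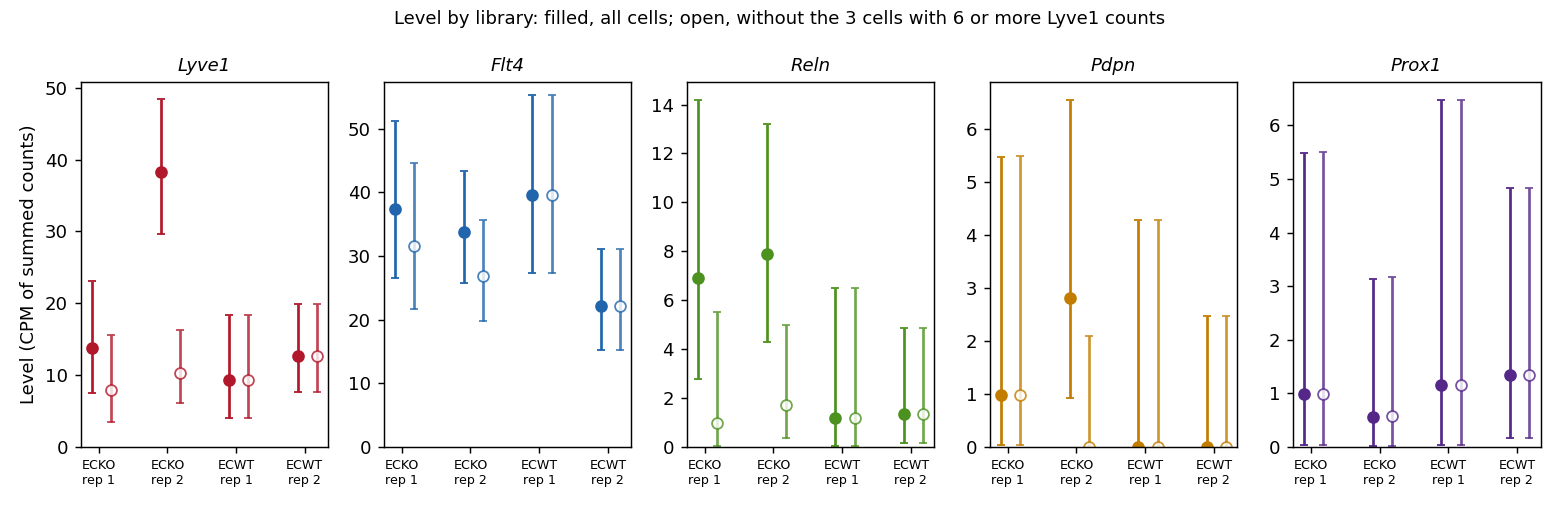
Level of each listed member (CPM of counts summed over the cells of a library) in the 4 libraries, with exact 95% Poisson intervals, over all kept cells (filled) and without the 3 cells with 6 or more *Lyve1* counts (open). Without these cells *Lyve1* in the second library labelled *Jag1* ECKO is 10.3 in place of 38.2 CPM, between the 9.31 and 12.7 CPM of the libraries labelled *Jag1* ECWT.

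To ask whether *Lyve1* cells hold the rest of the lymphatic genes, the members were counted in cells with and without *Lyve1*. *Prox1* was found in 0 of the 46 *Lyve1* cells, where 3 cells, the limit read from a 0, would be 6.52% (exact interval 0 to 7.71%), and in 4 of the 778 cells without *Lyve1* (0.514%). *Flt4* was found in 10 of 46 (21.7%, interval 10.9 to 36.4%) and in 106 of 778 (13.6%, interval 11.3 to 16.2%). *Pdpn* was found in 2 of 46 (4.35%) and 1 of 778 (0.129%), and *Reln* in 3 of 46 (6.52%, interval 1.37 to 17.9%) and 7 of 778 (0.900%, interval 0.362 to 1.84%). Pooled over libraries, the *Lyve1* cells held a median of 6655.5 counts against 5219. By library the medians were 6359.5 against 4107.5 and 6768 against 6467 under the *Jag1* ECKO label, and 6442.5 against 5460 and 4784 against 5220 under the *Jag1* ECWT label, so that the *Lyve1* cells were deeper in 3 of 4 libraries. At an equal depth of 2500 counts per cell, *Flt4* was held by 4 of 26 *Lyve1* cells (15.4%) and 57 of 766 others (7.44%), and *Reln* by 2 of 26 (7.69%) and 5 of 766 (0.653%). Cells under that depth were dropped for this, 13 and 2 in the libraries labelled *Jag1* ECKO and 8 and 9 in those labelled *Jag1* ECWT.

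All *Lyve1* cells with *Reln* or *Pdpn*, and 3 of the 10 with *Flt4*, were the 3 *Lyve1*-high cells. The cell with 31 *Lyve1* counts, of 13260 counts in all, held 7 of *Flt4*, 10 of *Reln* and 4 of *Pdpn*. The cell with 19, of 9796 counts, held 6 of *Flt4*, 1 of *Reln* and 1 of *Pdpn*. The cell with 6, of 2825 counts, held 6 of *Flt4*, 6 of *Reln* and none of *Pdpn*. *Prox1* was at 0 in all 3. Their 25881 counts together set the limit for that 0, since 3 counts in this total would be 116 CPM, whereas *Lyve1* stood at 2160, *Flt4* at 734, *Reln* at 657 and *Pdpn* at 193 CPM in the same cells. A *Prox1* level below 116 CPM was not detectable in them.

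The 43 cells with 1 to 3 *Lyve1* counts were different in content. *Flt4* was present in 7 of them (16.3%, interval 6.81 to 30.7%), within the counting error of the 13.6% in cells without *Lyve1*. By library, these were 3 of 7 and 1 of 15 cells under the *Jag1* ECKO label and 2 of 6 and 1 of 15 under the *Jag1* ECWT label. *Reln*, *Pdpn* and *Prox1* were found in none of the 43, where 3 cells would be 6.98% (exact interval 0 to 8.22% for each). These limits are on cells with a count, not on cells that express the gene.

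**Figure D3:**
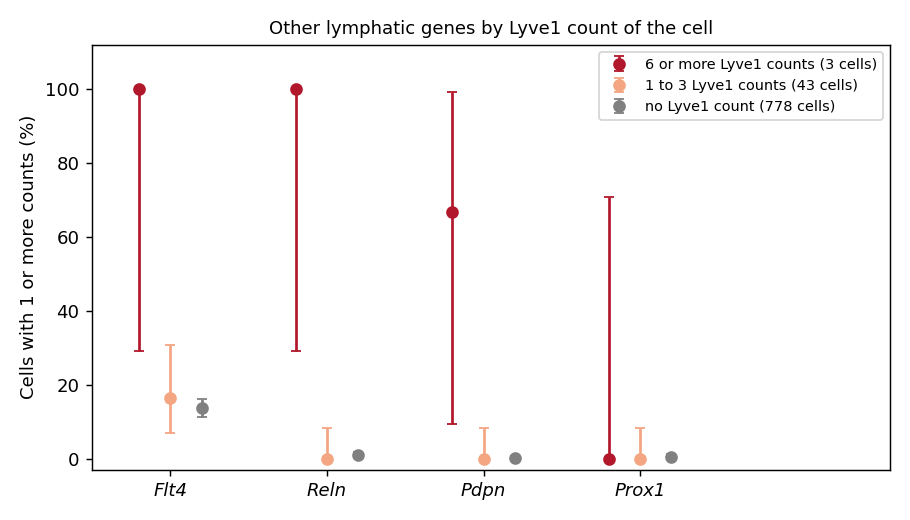
Share of cells (%) with 1 or more counts of *Flt4*, *Reln*, *Pdpn* and *Prox1* among the 3 cells with 6 or more *Lyve1* counts, the 43 with 1 to 3 and the 778 with none, with exact 95% binomial intervals. *Flt4* and *Reln* are in all 3 of the first, and the 43 cells lie within the counting error of the 778.

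The 3 *Lyve1*-high cells were chosen after their counts were seen, so their other genes are given as a description with no test. Besides the members, 31 of 36 further genes known from lymphatic endothelium were listed. Of the 31, 20 had a count in these cells, 15 at a higher CPM than in the other 821 cells and 5 at a lower one, and 11 were at 0. Among the transcription factors, *Nr2f2*, a venous factor that also takes part in lymphatic specification, had 15, 9 and 4 counts in the cells with 31, 19 and 6 *Lyve1* counts (1080 CPM, against 49.0 in the other cells). *Maf*, which is linked to lymphatic differentiation, had 3, 8 and 7 counts (695 against 3.52 CPM). *Foxc2*, a factor of lymphatic valves, had 4, 0 and 0 counts (155 against 106 CPM), and *Sox18*, which acts upstream of *Prox1*, was at 0. *Sox18* differed between whole libraries, at 247, 23.05, 386.4 and 328.4 CPM, and 2 of the 3 cells came from the library at 23.05 CPM, so a 0 in them says little. *Foxc2* was also counted in 324 (39.5%) of the other cells.

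Among surface and secreted products, *Thy1*, a glycoprotein also found on lymphatic cells of the mouse, had 20, 17 and 7 counts (1700 against 6.25 CPM), and *Nts*, the peptide precursor neurotensin, had 26, 2 and 0 (1080 against 0.391 CPM). *Nrp2*, a co-receptor for VEGF-C, had 0, 2 and 1 counts (116 against 17.2 CPM), and *Kdr*, another VEGF receptor, had 2, 1 and 2 (193 against 12.1 CPM). The scavenger receptor *Stab1* was at 695 against 551 CPM, and the tetraspanin *Cd9*, with 11, 6 and 6 counts, at 889 against 459 CPM. Of genes outside the list, *Igfbp5*, a secreted IGF binding protein, had 154, 80 and 46 counts (10800 against 102 CPM).

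**Figure D4:**
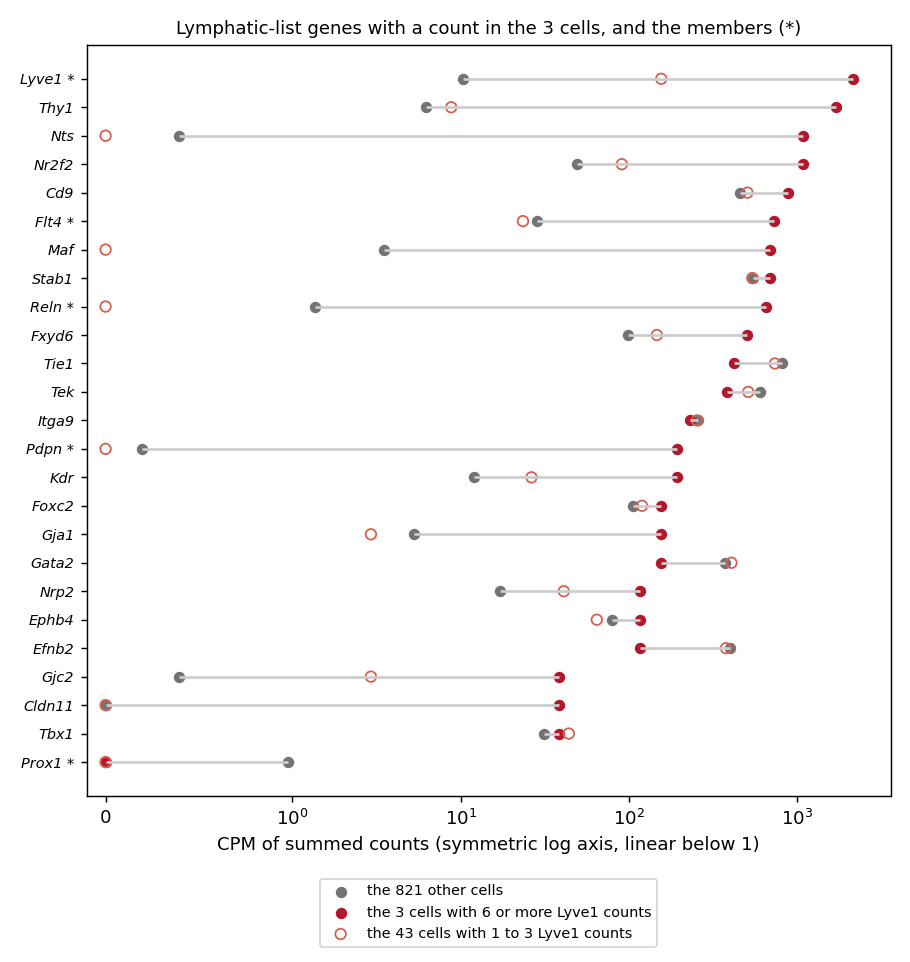
CPM of summed counts (symmetric log axis) in the 3 cells with 6 or more *Lyve1* counts, the 43 with 1 to 3 and all 821 cells other than the 3, for the listed members (starred) and the further lymphatic genes with a count in the 3 cells. *Maf*, *Reln*, *Pdpn* and *Nts* are high in the 3 cells and at 0 in the 43, and *Prox1* is at 0 in both.

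Markers of other cell types were read in the same cells. All 10 general endothelial markers had a count in the 3 cells, with *Pecam1*, which encodes CD31, at 17, 13 and 4 counts, although its level was lower than in the other cells (1310 against 4690 CPM). *Vwf*, the von Willebrand factor gene, had 2, 1 and 0 counts (116 against 1660 CPM), and the junction gene *Cldn5* had 8, 22 and 13 (1660 against 357 CPM). The summed level of the 8 arterial markers was 3.48 counts per 10000 in the 3 cells, 22.7 in the 43 cells with 1 to 3 *Lyve1* counts and 22.7 in cells without *Lyve1*, and *Sox17*, *Mecom* and *Fbln5* were at 0 in the 3 cells. The endothelial sum was 55.6 per 10000 in the 3 cells and 90.9 in the 43, against 96.0 in cells without *Lyve1*. The venous or capillary sum was 16.2, 13.4 and 9.16 per 10000 in the same order. In the cells with 31, 19 and 6 *Lyve1* counts, 15 of 21, 9 of 11 and 4 of 10 counts of this list were *Nr2f2*, which is also on the lymphatic list. Of the 9 genes, 4 were at a higher CPM than in the other cells and 2 were at 0. The 3 at a lower CPM were *Selp* (38.6 against 437), *Fabp4* (77.3 against 247) and *Lrg1* (38.6 against 43.5). All 11 listed macrophage markers, *Ptprc* and *Mrc1* included, were at 0 in all 46 *Lyve1* cells, where 3 cells with a count would be 6.52% (exact upper bound 7.71%). Of the 778 cells without *Lyve1*, 41 (5.27%) held a count of at least 1 of them, a share that a 0 in 46 cells does not exclude. The sort removed CD45+ cells. The 8 fibroblast markers summed to 0.773 per 10000 in the 3 cells and 12.2 in the 43, against 17.0 in cells without *Lyve1*. The barcodes of the 3 cells were shared with 9 cells of other libraries, and 0 of those 9 held *Lyve1*.

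The members were then placed on the 14 clusters. Since all listed members were among the variable genes used for clustering, their levels by cluster are a description. *Lyve1* was counted in 11 of 68 cells (16.2%, interval 8.36 to 27.1%) of cluster 5, whose leading genes were *Galnt18*, *Aqp1*, *Ret*, *Fxyd6* and *Igfbp5*, and in 0 to 9.68% of the cells of the others. Cluster 5 held the cell with 6 *Lyve1* counts, and its other 10 *Lyve1* cells shared the remaining 13 of its 19 counts. Cluster 9, led by *Lrg1*, *Fabp4*, *Pde2a*, *Nr2f2* and *Nrp2*, held *Lyve1* in 3 of 32 cells but had the highest level, 288 CPM, of which 50 of 51 counts lay in the cells with 19 and 31. Clusters next to each other in the order of shares had overlapping intervals. *Flt4* ranged from 6.67% of the fibroblast/VSMC-like cluster 11 to 29.4% (5 of 17 cells, interval 10.3 to 56.0%) of cluster 13, led by the capillary genes *Gpihbp1*, *Igfbp3* and *Cd36*, which held no *Lyve1*.

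**Figure D5:**
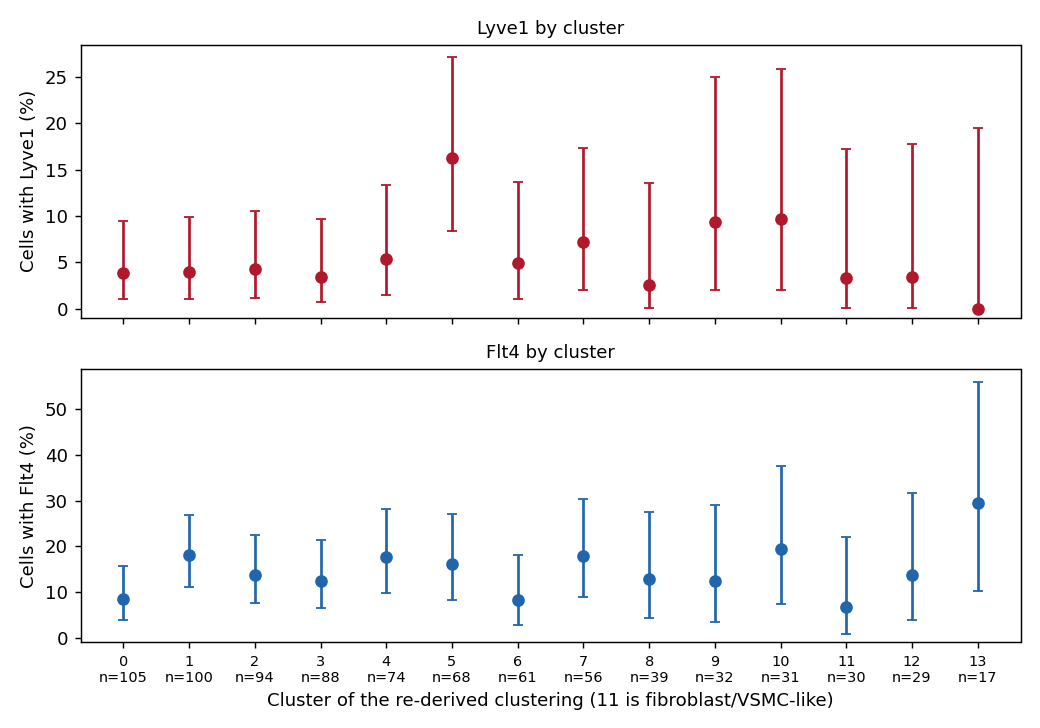
Share of cells (%) with a count of *Lyve1* (top) and *Flt4* (bottom) in each of the 14 clusters, with exact 95% binomial intervals and the number of cells under each cluster. *Lyve1* is found in 16.2% of cluster 5 and in none of cluster 13, where *Flt4* is found in 29.4%.

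Between the libraries labelled *Jag1* ECKO and *Jag1* ECWT, *Lyve1* was higher in the former by a log2 fold change of 1.29 (SE 0.539), which did not pass (edgeR quasi-likelihood test on summed counts, Benjamini-Hochberg adjusted p = 0.900). Of all 9730 genes tested, 0 passed an adjusted p of 0.05 (0.0% called) by edgeR, 2 passed by DESeq2, and 465 (4.78%) had an unadjusted p below 0.05. Both libraries labelled *Jag1* ECKO lay above both labelled *Jag1* ECWT for *Lyve1*, as they did for 1559 of the 9730 genes (16.0%). Without the 3 *Lyve1*-high cells the levels were 7.90 and 10.3 against 9.31 and 12.7 CPM, and the log2 fold change was -0.26 (adjusted p = 0.969), the opposite direction. Without the second library labelled *Jag1* ECKO it was 0.24, and without the first it was 1.80, which passed (edgeR adjusted p = 0.00173). In those 2 fits 417 and 196 genes passed, and the remaining *Jag1* ECKO library had no replicate, so its spread was taken from the other pair.

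*Flt4* differed by 0.27 on the log2 scale (edgeR adjusted p = 0.930, SE 0.322), and by -0.02 without the 3 cells. *Prox1*, *Pdpn* and *Reln* were too low for the filter on counts and were not tested in the main fit. With the filter dropped they were at -0.7, 4.48 and 2.49 (edgeR adjusted p = 0.977, 0.933 and 0.61), on 5, 6 and 24 counts in all. Of the further lymphatic genes, 21 were tested and 0 passed in either direction by edgeR, with a median log2 fold change of 0.09 and 12 of 21 higher under the *Jag1* ECKO label, beside a median of -0.001 over all 9730 genes. The 3 of the 21 with an unadjusted p below 0.05 were *Thy1* (log2 fold change 4.18, adjusted p = 0.428), *Nr2f2* (2.14, adjusted p = 0.296) and *Maf* (1.51, adjusted p = 0.900), all higher under the *Jag1* ECKO label. *Thy1* (13 and 60 counts against 1 and 2) and *Maf* (11 and 17 against 5 and 3) reached the filter only through the libraries of that label. Their direction was therefore fixed by the filter and is not a result. *Thy1* stood at 12.8 and 33.7 CPM against 1.16 and 1.34, and *Nr2f2* at 106 and 69.7 against 16.3 and 22.1. Without the 3 *Lyve1*-high cells *Thy1* and *Maf* were too low for the filter, and *Nr2f2* was at 1.99 (adjusted p = 0.455). All 8 VSMC markers were also higher under that label, with a median log2 fold change of 1.70, 5 at an unadjusted p below 0.05 and 0 passing. Of the venous or capillary EC markers, 7 were tested, with a median log2 fold change of 1.5, 5 higher under that label and 0 passing, and the 4 with an unadjusted p below 0.05 were *Nr2f2* itself, *Lrg1* (1.85), *Fabp4* (1.52) and *Cd36* (1.505). The part of these differences in the lymphatic genes was not tested. In summed counts, more cells of a kind and more RNA per cell cannot be told apart.

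Finally, counts were summed within each library over cells with and without *Lyve1* and compared with the library as a block. *Flt4* was higher in *Lyve1* cells by a log2 fold change of 1.24 (SE 0.467), which did not pass (edgeR adjusted p = 0.991), and without the 3 cells it was -0.29 (adjusted p = 0.999). *Reln* passed where the filter on low counts was dropped, with a log2 fold change of 4.33 (edgeR adjusted p = 0.00875), all of its counts in *Lyve1* cells being those of the 3 cells. *Pdpn* (4.46), *Prox1* (-2.65) and *Flt4* (1.07) did not pass there (edgeR adjusted p = 0.935 for each). Of the 15 further lymphatic genes tested, 0 passed by edgeR and 7 were higher in *Lyve1* cells, with a median of -0.03, beside a median of -0.03 over all genes. Of these, 2 had an unadjusted p below 0.05. *Fxyd6*, an ion transport regulator, had a log2 fold change of 0.84 (edgeR adjusted p = 0.532) and was higher in 4 of 4 libraries. *Nr2f2* had a log2 fold change of 1.53 (adjusted p = 0.134), at 337 against 88.9 and 233 against 55.1 CPM in the libraries labelled *Jag1* ECKO, and at 0 against 17.4 and 10.5 against 22.9 CPM in those labelled *Jag1* ECWT. In the libraries labelled *Jag1* ECWT the *Lyve1* cells held too few counts for a direction. The 3 *Lyve1*-high cells held 15, 9 and 4 of the *Nr2f2* counts, and without them its log2 fold change was 0.80 (edgeR adjusted p = 0.999). *Nr2f2* passed over EC-like cells alone (2.09, adjusted p = 0.0264) and without the first or the second library labelled *Jag1* ECWT (1.67 and 1.80, adjusted p = 0.0105 and 0.0166). These settings all kept the 3 *Lyve1*-high cells. It did not pass under any other setting run. With DESeq2 it was 1.14, with more than 1500 genes 1.44 (edgeR adjusted p = 0.307) and at an equal depth of 2500 counts 1.37 (edgeR adjusted p = 0.99). Without the first or the second library labelled *Jag1* ECKO it was 1.28 and 1.01.

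In the same comparison 7 of 6432 genes passed (0.109% called), and 263 (4.09%) had an unadjusted p below 0.05. Higher in *Lyve1* cells were *Igfbp5* (log2 fold change 2.39, edgeR adjusted p = 0.00114), the fibrinogen-like gene *Fgl2* (1.29, adjusted p = 0.00233) and *Lbp*, which encodes the lipopolysaccharide binding protein (1.92, adjusted p = 0.0200). *Fgl2* and *Lbp* were higher in all 4 libraries, and *Igfbp5* in 3 of 4. In the *Lyve1* cells of the libraries labelled *Jag1* ECWT, 3 counts were 55.5 CPM in the first and 1 count was 10.5 CPM in the second. There *Lbp* stood at 73.97 and 52.38 CPM and *Igfbp5* at 36.98 and 41.91 CPM, so their direction rests on few counts. Lower were *Igfbp7*, another secreted IGF binding protein (-1.46, adjusted p = 0.000604), the matrix genes *Sparcl1* (-2.76, adjusted p = 0.00404) and *Fbln2* (-0.87, adjusted p = 0.0357), and the smooth muscle myosin *Myh11* (-1.69, adjusted p = 0.0379). The first 3 of these were lower in 4 of 4 libraries, although *Sparcl1* stood at only 14.04, 6.855, 0 and 41.91 CPM in the *Lyve1* cells, which is also few counts. *Myh11* had 1 count in the whole first library labelled *Jag1* ECWT, so its direction there was not measurable. Of the 30 fibroblast/VSMC-like cells, 1 held *Lyve1*. Over EC-like cells alone *Myh11* was at 0.01, *Igfbp7* at -0.98 (adjusted p = 0.340) and *Sparcl1* at -2.34 (adjusted p = 0.340), and none of the 3 passed. The part of the fibroblast/VSMC-like cells in these differences was not tested. Without the 3 *Lyve1*-high cells *Igfbp7* (-1.44, adjusted p = 0.00118) and *Sparcl1* (-2.69, adjusted p = 0.0166) still passed, while *Igfbp5* was at 0.17 (adjusted p = 0.999), *Fgl2* at 0.95 (adjusted p = 0.363), *Lbp* at 1.18 (adjusted p = 0.999), *Fbln2* at -0.79 (adjusted p = 0.196) and *Myh11* at -1.65 (adjusted p = 0.128). *Fbln2* also did not pass when any 1 of the 4 libraries was left out (edgeR adjusted p between 0.0821 and 0.203). Without the second library labelled *Jag1* ECKO, 0 genes passed by edgeR.

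The genes whose counts went most with *Lyve1* over the cells of a library, by the mean of the 4 within-library Pearson correlations among 8982 genes, were *Igfbp5* (0.27), *Sema3d* (0.21), *Palm* (0.21), *Arhgap10* (0.20), *Fgl2* (0.18), *Commd10* (0.17), *Ptprf* (0.17), *Fxyd6* (0.16), *Paqr4* (0.15) and *Ercc6l2* (0.15). Cells of 1 library share its preparation and differ in depth, and these weak values in sparse counts are a description. *Arhgap10*, *Commd10*, *Ptprf*, *Paqr4* and *Ercc6l2* were each below 0 in 1 library. *Flt4* was at rank 12 (0.15, with 0.42, 0.24, -0.018 and -0.048 in the 4 libraries), and without the 3 cells at rank 4378 (0.0014). *Ercc6l2* was the only one of the 10 that was also among the first 10 without the 3 cells, and over all cells it stood at -0.01, 0.065, 0.44 and 0.11 in the 4 libraries.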

How the data were processed

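Single CD31+ CD45- TO-PRO-3- aortic cells were sorted into 384-well plates and sequenced by SORT-seq, which tags the 3′ end with molecular identifiers (UMIs). The authors aligned reads to GRCm38 with STAR and deposited 1 table of estimated counts per gene and cell. The values equal ln(1 - k/4096)/ln(1 - 1/4096) of a whole UMI number k (largest deviation 3.64e-12), and were rounded. Seurat 3.1, named in the submitters' processing notes, was used by the authors for clustering.

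Here cells with more than 1200 genes were kept, and clusters were rebuilt with Seurat 5.3.0 (2000 variable genes, 12 components, resolution 2.3) and named from marker lists. No doublet caller was run. CPM are counts summed over cells and scaled to 1000000. Tests used edgeR 4.0.16 (TMM, filterByExpr, quasi-likelihood, Benjamini-Hochberg over all genes) on sums per library, with DESeq2 1.42.0 as an alternative. On simulated data, 3.0% and 52.4% of genes changed by log2 1 and 2 were recovered between labels, and 7.6% and 66.8% between *Lyve1* classes. Intervals are exact at 95%, and a count of 0 is read as up to 3 counts. Named genes are the members, list genes, *Jag1*, those passing in the *Lyve1* comparison and the 10 most correlated with *Lyve1*. The genes that lead a cluster are named to identify it. *Igfbp5*, which did not go the same way in all 4 libraries, is named to complete the 7 that passed. Genes of the 3 *Lyve1*-high cells were chosen after their values were seen. The members and lists were chosen with earlier results of these data known.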

Additional observations from a re-analysis of the deposited data

How the results depend on the processing

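No paired analysis was possible because neither the labels nor the paper pair the libraries. Between labels, 0 genes passed by edgeR, whereas 2 passed with DESeq2 and 127 with no filter on low counts, and between 0 and 417 when 1 library was left out. The *Lyve1* log2 fold change of 1.29 ranged from 0.24 to 1.80 without 1 library and was -0.26 without the 3 *Lyve1*-high cells, an alternative chosen after seeing the data. *Flt4* ranged from -0.10 to 0.66 and was -0.02 without the 3 cells. Between cells with and without *Lyve1*, the 7 calls became 13 where 2 or more *Lyve1* counts were required, 2 with DESeq2, 2 in thinned cells, 3 with more than 1500 genes, 0 without the library block, 28 with no filter, 2 without the 3 cells and 0 to 13 without 1 library. *Flt4* ranged from 0.89 to 1.57 without 1 library, was 2.29 where 2 or more *Lyve1* counts were required (edgeR adjusted p = 0.123) and was -0.29 without the 3 cells, and *Myh11* was 0.01 in EC-like cells alone. Over the 7 called genes, 43 of 96 values from a gene under an alternative kept their direction but fell short of the threshold. Of the 7, only *Igfbp7* and *Fgl2* passed with DESeq2, these and *Sparcl1* with more than 1500 genes, and only *Igfbp5* in thinned cells. *Igfbp5* fell to 1.80 with DESeq2 and to 1.24 with more than 1500 genes. Without 1 library *Igfbp5* ranged from 1.55 to 3.07 and *Sparcl1* from -3.95 to -2.19. The mean share over 4 libraries of *Lyve1* cells, 5.39%, was 3.01% in thinned cells and 1.44% at 2 or more counts, and that of *Flt4* cells, 14.2%, was 7.90% and 3.43%. *Reln* and *Pdpn*, held by 6.52% and 4.35% of *Lyve1* cells, were in 0.0% without the 3 cells. *Prox1* was in 0 *Lyve1* cells under every setting run. With a few counts per cell, depth limits all shares, and with 2 libraries a label most genes changed by log2 1 would be missed.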

Other observations

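The 167 cells with 1200 or fewer detected genes, which were left out of the main comparisons, held *Lyve1* in 2 cells with 1 count each, *Flt4* in 12, *Prox1* in 1, *Reln* in 1 and *Pdpn* in 0, where 3 cells with a count would be 1.80%. No cell in this shallow set held more than 1 count of any listed member.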
